A study of Mus musculus with 3 samples.

Results

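The Th2 cytokine locus and Gata3 were examined as 8 genes in an ATAC-seq study of colitis in mice. ATAC-seq marks open chromatin by letting a transposase insert sequencing adapters into accessible DNA. The genes were chosen with earlier results of these data known, and their regions were then taken by position alone. Overlapping peaks of the 3 deposited peak lists were merged. A region was kept when the nearest RefSeq protein-coding gene span within 100 kb belonged to Il4, Il5, Il13, Rad50, Kif3a, Il3, Csf2 or Gata3. This gave 30 of 57457 regions, of which 13 belonged to Gata3, 7 to Csf2, 3 to Kif3a, 2 to Rad50, 2 to Il5 and 1 each to Il4, Il13 and Il3.

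The 3 fractions came from colon-draining mesenteric lymph nodes of 4 wild-type C57BL/6J recipients. Divided cells were CBir1 T cells with diluted CellTrace Violet (CTVdim), undivided cells were CBir1 T cells that kept the dye (CTVhi), and polyclonal cells were all of the recipients' own non-CBir1 CD4+ T cells. CBir1 cells carry a transgenic receptor for a bacterial flagellin and were naive CD4+ splenocytes at transfer. Every recipient drank 2% dextran sulfate sodium for 7 days, received 1 mg/kg FTY720, which holds lymphocytes in lymph nodes, on days 7, 10 and 13, and was sampled on day 14. All 3 fractions therefore share colitis and FTY720, and the polyclonal fraction is a mixture of endogenous helper cells of unstated history. Cells of 2 mice were pooled, in duplicate per the labels, but 1 peak list per fraction was analysed. The differences below are therefore without replication, and none was given a p-value.

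Il4, Il5 and Il13 encode the signature cytokines of type 2 helper T cells and lie together on mouse chromosome 11. Rad50, a DNA repair gene of most cells, sits between Il13 and Il5, and its 3′ part is known to hold the locus control region of the cytokine genes. Kif3a, a kinesin motor subunit gene, flanks Il4 on the other side. Il3 and Csf2, which encode the growth factors interleukin 3 and GM-CSF, form a second cytokine pair further along the chromosome. Gata3 encodes the zinc finger factor that directs Th2 differentiation and is also needed by T cells in general.

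Signal is given as the number of fragments piled up at a peak's summit, recovered from the deposited fold and p-value, with a 95% Poisson interval that covers counting error only. In a bulk library, fewer cells with an open site and a less open site per cell cannot be told apart. The peak lists held 47963 entries for divided, 41876 for undivided and 44426 for polyclonal cells. The divided library was deeper, 1.5 times the undivided and 1.4 times the polyclonal library by lowest background, or 1.21 and 1.19 times by the median pileup ratio of the 32680 regions called in all 3. Ratios below were scaled by the last 2 factors. All 10 T cell identity genes, such as Cd3e, Cd4 and Lck, had a peak within 1 kb of a gene end in every library.

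The promoter windows of the cytokine genes carried no peak in any fraction, whereas that of Gata3 was open in all 3. Promoter windows of 250 bases before to 50 after a transcription start were taken from RefSeq (GRCm38.p6, the assembly of mm10), which matched 7 of the 8 genes, Rad50 having no entry. No peak overlapped the windows of Il4 (which has 2 starts), Il13, Il5, Csf2 or Il3, in divided, undivided or polyclonal cells. Outside its window, a region inside Csf2 with its summit 489 bp after the start was called in every fraction, as described below. The windows of Gata3 and Kif3a carried a peak in each fraction. Of all 32851 windows, 38.9% were overlapped by a peak in divided cells, 37.7% in undivided cells and 38% in polyclonal cells. That share follows base composition, and the bases before the start of Gata3 and of the 3 Th2 cytokine genes are shown so that the contrast can be seen. They are printed on the coding strand, with matches to GATA hexamers and to the NFAT core in capitals. The stretches are chr2:9878601-9878850 (minus strand) for Gata3, chr11:53618666-53618915 (minus) for the upstream start of Il4, chr11:53634703-53634952 (minus) for Il13 and chr11:53720544-53720793 (plus) for Il5.
Gata3: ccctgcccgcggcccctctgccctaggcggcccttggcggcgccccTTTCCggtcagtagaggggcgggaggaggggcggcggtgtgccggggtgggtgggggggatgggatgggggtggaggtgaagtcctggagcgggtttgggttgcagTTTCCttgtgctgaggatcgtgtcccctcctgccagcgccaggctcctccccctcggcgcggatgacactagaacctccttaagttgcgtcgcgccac
Il4: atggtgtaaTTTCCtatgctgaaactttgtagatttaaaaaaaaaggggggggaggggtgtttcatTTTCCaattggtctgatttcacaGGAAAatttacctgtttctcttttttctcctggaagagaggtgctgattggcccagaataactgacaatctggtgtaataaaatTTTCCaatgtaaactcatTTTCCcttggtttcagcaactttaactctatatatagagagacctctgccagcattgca
Il13: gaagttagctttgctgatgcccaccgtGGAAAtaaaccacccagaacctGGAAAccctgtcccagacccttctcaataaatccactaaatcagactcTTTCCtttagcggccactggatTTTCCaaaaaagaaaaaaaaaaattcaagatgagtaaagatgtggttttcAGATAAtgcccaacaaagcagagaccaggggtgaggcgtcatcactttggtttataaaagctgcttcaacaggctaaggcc
Il5: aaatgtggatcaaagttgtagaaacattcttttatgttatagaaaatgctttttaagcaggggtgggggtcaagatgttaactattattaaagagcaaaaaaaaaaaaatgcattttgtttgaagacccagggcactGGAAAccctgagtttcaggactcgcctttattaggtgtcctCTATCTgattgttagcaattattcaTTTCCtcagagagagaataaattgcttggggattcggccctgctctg

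The whole window had a G+C content of 67.3% at Gata3, against 38% at Il4, 46% at Il13 and 40% at Il5, and the median over all windows was 52.7%. Among the 3302 windows under 40%, the share with a peak was 2.3% in divided cells, 2.03% in undivided cells and 2.18% in polyclonal cells. In the class from 60% to 70%, which holds Gata3, it was 76.2%, 74.1% and 74.9% in the same 3 fractions. In the class from 40% to 50%, which holds Il13 and Il5, it was 12.7% in divided cells, 11.7% in undivided and 11.9% in polyclonal cells. The other 3 cytokine windows, those of Csf2 at 56.7%, the second Il4 start at 51.7% and Il3 at 50.7%, belong to a class with 38.8%, 37.9% and 38% called in the same order, and were uncalled too. GATA hexamers (the forms AGATAA, then AGATAG, with TGATAA and likewise TGATAG, on either strand) were present in 7 of the 8 member windows, all but Kif3a, and in 29.8% of all windows. The matches of Gata3 and of the upstream Il4 start lie 36 and 14 bases after the start, outside the printed stretch. The NFAT core GGAAA, on either strand, occurred 5 times at the upstream Il4 start and 4 times at Il13, both within the printed bases. Of all windows, 0.728% hold at least 5 and 2.65% at least 4. No member window held an AP-1 match (TGANTCA, found in 7.81% of windows). The STAT motif TTCNNNGAA, found in 8.3% of windows, occurred only at the second Il4 start, where it overlapped an NFAT core. The matches are descriptions of letters, not of bound sites.

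**Figure D1:**
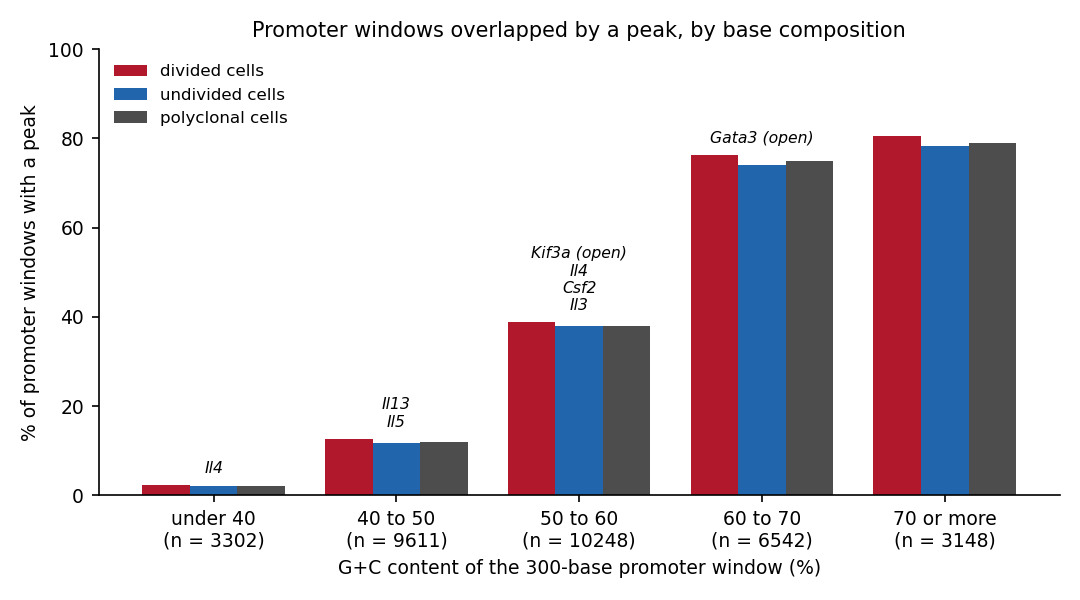
Share of RefSeq promoter windows (%) overlapped by a peak, by G+C content class (%), in divided, undivided and polyclonal cells (bars, 1 library each, n of windows under each class); member genes are written above their class and marked where open. The share grows from 2.3% to 80.6% of windows in divided cells. Of the 7 members with a window, Gata3 and Kif3a alone were open, and Rad50 had no window.

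Between Kif3a and the region over the Il5-facing end of Rad50 lay 4 open regions. Each had its highest count in divided cells, the deepest library. The stretch spans 102 kb and contains Il4, Il13 and most of Rad50. Divided cells had a peak in all 4 regions, undivided cells in 1 and polyclonal cells in 3, where 82.2%, 71.1% and 75.4% of all regions were called. The ends of the stretch were set with the calls known, so the counts are a description. The regions are, in chromosome order, 1135 bp beyond the 3′ end of Kif3a, 2393 bp beyond the 3′ end of Il4, between Il4 and Il13, and within Rad50.

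The strongest was the Rad50 region (chr11:53656725-53657188), which lies 7418 bp inside the end of the gene span that faces Il13 and 22.2 kb upstream of the Il13 start. Its summit held 39 fragments (95% interval 27.7 to 53.3) in divided cells and 14 (7.65 to 23.5) in polyclonal cells, and no peak was called in undivided cells. Equal openness would have given 32.3 fragments in the undivided library, where 6 were enough for a call at the corresponding local background. The absence there was therefore within what the depth could show. Of the 12284 regions called in divided and not in undivided cells, 0.855% had a −log10 q as high as its 36.8. Its scaled ratio of divided to polyclonal cells was 2.34 (95% interval 1.24 to 4.67), or 2 when scaled by background. The summits of both libraries were 35 bp apart.

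The Il4 region (chr11:53609611-53610067) lies 8.85 kb downstream of the upstream Il4 start, past the gene's 3′ end, where a silencer and an enhancer are known in mouse; whether the region is either was not tested. It had 20 fragments (12.2 to 30.9) in divided cells and 9 (4.12 to 17.1) in polyclonal cells, with the summit at the same base. Undivided cells lacked a call, although 16.6 fragments would have matched the divided level and 8 would have sufficed. The scaled ratio of divided to polyclonal cells was 1.87 (0.813 to 4.66), so the libraries did not differ beyond counting error. Its −log10 q was moderate, at 8.29 in divided cells and 4.47 in polyclonal cells.

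The Il13 region (chr11:53627720-53628161) was called in divided cells only. It lies 3162 bp from the Il13 span and 9.4 kb upstream of the upstream Il4 start, in the interval that holds the conserved element CNS-1; whether it is that element was not tested. Its summit had 17 fragments (9.9 to 27.2) in divided cells with a −log10 q of 12.4. At the divided level, 14.1 fragments would have been seen in undivided cells and 14.3 in polyclonal cells, and 5 would have been enough for a call in either.

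The region beyond Kif3a (chr11:53605383-53606207) was called everywhere, with 33 fragments (22.7 to 46.3) in divided cells, 16 (9.15 to 26) in undivided cells and 9 (4.12 to 17.1) in polyclonal cells. It lies 12.8 kb downstream of the upstream Il4 start, with no member gene between it and Il4. The scaled ratio of divided to polyclonal cells was 3.08 (1.44 to 7.32), the highest among the members, and 0.422% of all 36741 regions called in both reached it. Its ratio of divided to undivided cells was 1.71 (0.915 to 3.33) and that of undivided to polyclonal cells 1.8 (0.748 to 4.62), and both intervals include 1.

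The regions on either side of this stretch were called in every fraction. The Kif3a promoter (chr11:53567234-53567954) had 34 fragments in divided, 37 in undivided and 40 in polyclonal libraries. A region inside Kif3a (chr11:53590388-53591051) had 45, 31 and 30 fragments in the same 3 fractions. At the other end of Rad50, the region over the span's Il5-facing end (chr11:53706697-53707775) held 66 fragments in divided cells, 44 in undivided and 62 in polyclonal cells, with scaled ratios of 1.24 for divided to undivided and 0.895 for divided to polyclonal cells. The counting intervals of all these ratios include 1, so a difference between fractions was not detectable at this depth at the flanking Kif3a sites or the far end of Rad50.

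Il5 had no region closer than 10476 bp. Both of its regions lie downstream of the gene, 15 and 16.4 kb from its start, on the side away from Rad50. The nearer one (chr11:53735579-53736152) had 39 fragments in divided cells, 44 in undivided and 33 in polyclonal cells. The farther one (chr11:53736935-53737857) had 45, 36 and 35 fragments in the same fractions. Scaled ratios of these sites ran from 0.735 to 1.35, and each interval includes 1.

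**Figure D2:**
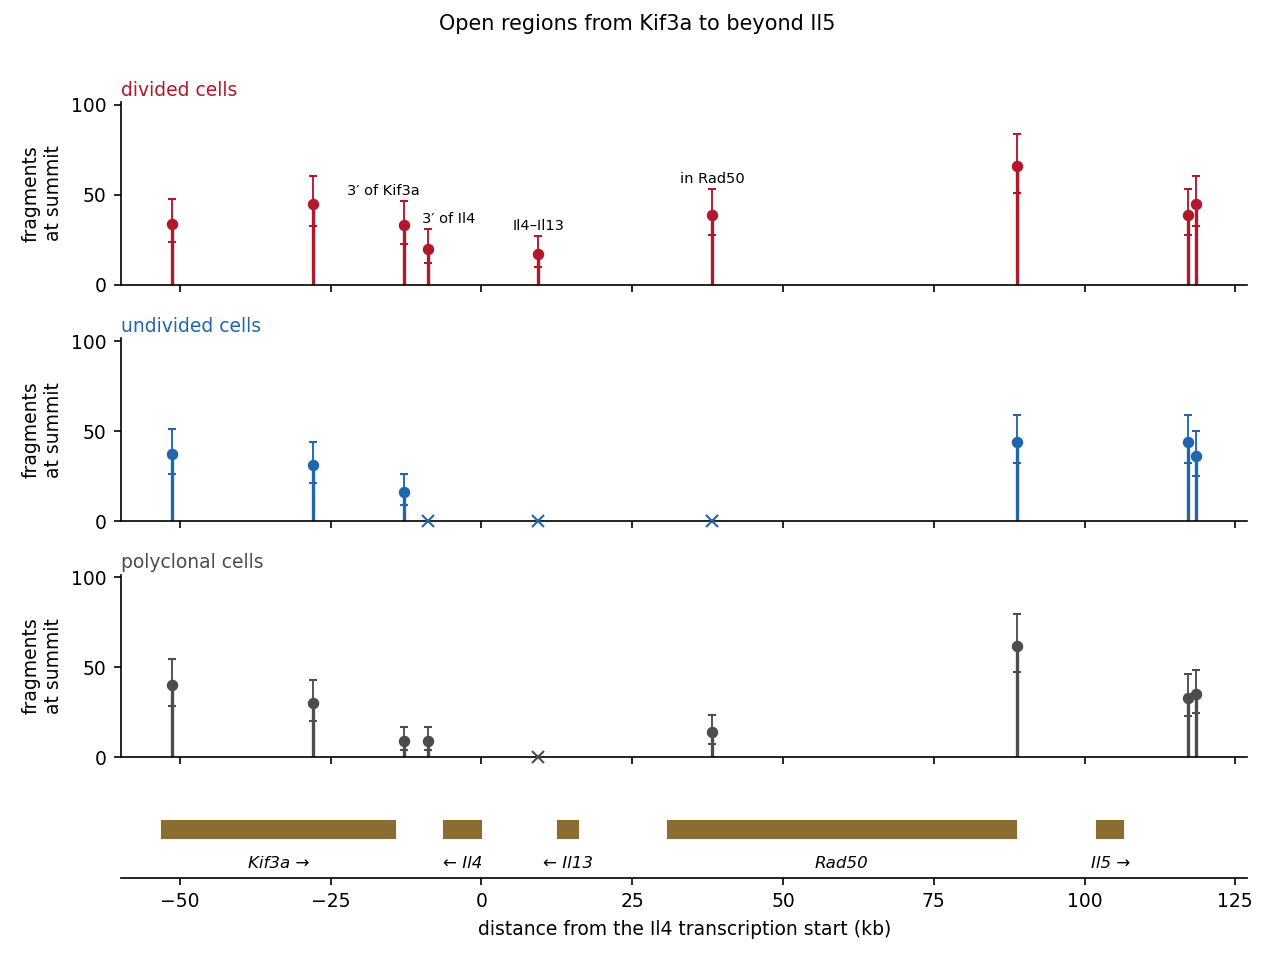
Fragments at the summit (y axis) of each open region from Kif3a to beyond Il5 against distance from the upstream Il4 start (x axis, kb, rising with chromosome coordinates), in divided, undivided and polyclonal cells from top to bottom, 1 library each. Points are counts with 95% Poisson intervals, crosses are regions with no called peak, boxes are gene spans and arrows the direction of transcription where the RefSeq promoter table gives it. The Rad50 region holds 39 fragments in divided cells, no call in undivided cells and 14 in polyclonal cells, while the far end of Rad50 has 66, 44 and 62.

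At Csf2 and Il3, 2 of the regions called in every fraction had their highest counts in polyclonal cells, a region inside Csf2 and another upstream of Il3. The Csf2 region inside the gene (chr11:54249070-54249599, summit 489 bp after the start) had 10 fragments (4.8 to 18.4) in divided cells, 16 (9.15 to 26) in undivided cells and 31 (21.1 to 44) in polyclonal cells. Its scaled ratio was 0.271 (0.119 to 0.568) for divided to polyclonal cells, the lowest of the members, and 0.522 (0.267 to 0.984) for undivided to polyclonal cells. Of all regions called in divided and polyclonal cells, 0.12% had a ratio as low. Divided to undivided cells gave 0.518 (0.21 to 1.21), which includes 1. The −log10 q was 4.99 in divided cells, 10.6 in undivided and 25.6 in polyclonal cells.

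The only Il3 region (chr11:54277780-54278245) lies 10.8 kb upstream of the Il3 start. It had 12 fragments (6.2 to 21) in divided cells, 8 (3.45 to 15.8) in undivided cells and 23 (14.6 to 34.5) in polyclonal cells. The scaled ratio was 0.439 (0.199 to 0.918) for divided to polyclonal and 0.352 (0.136 to 0.815) for undivided to polyclonal cells. Both CBir1 fractions were thus below the polyclonal library at this site and at the site inside Csf2, by intervals that leave out 1. For undivided cells at the Csf2 site, the interval ended at 0.984. Scaled by background, that ratio was 0.553 in place of 0.522, so leaving out 1 there depends on the scaling.

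Another site between the genes was called in both CBir1 fractions. This narrow region 7.25 kb upstream of the Csf2 start (chr11:54257056-54257274) had 17 fragments (9.9 to 27.2) in divided cells and 18 (10.7 to 28.4) in undivided cells and was not called in polyclonal cells, where 5 would have sufficed. Its summits lay 4 bp apart, and its −log10 q was 12.4 in divided and 16.6 in undivided cells. Among the 30 member regions it alone (3.33%) was called in both CBir1 fractions and not in polyclonal cells, against 3.96% of all regions. A weaker site 4.37 kb upstream of the start (chr11:54254153-54254377) was called in undivided cells only, with 10 fragments and a −log10 q of 4.41.

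The remaining Csf2 regions lie beyond the gene's 3′ end. One 35.2 kb from the start (chr11:54214374-54215358) was open throughout, with 33 fragments in divided cells, 38 in undivided and 35 in polyclonal cells. Near it, a weak site was called in polyclonal cells only, with 9 fragments. Between it and the gene, 9 fragments were called in divided cells only at 12.6 kb, and 5 in undivided cells only at 13 kb. These 3 weak sites had −log10 q values of 2.44, 4.08 and 1.65 in that order.

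**Figure D3:**
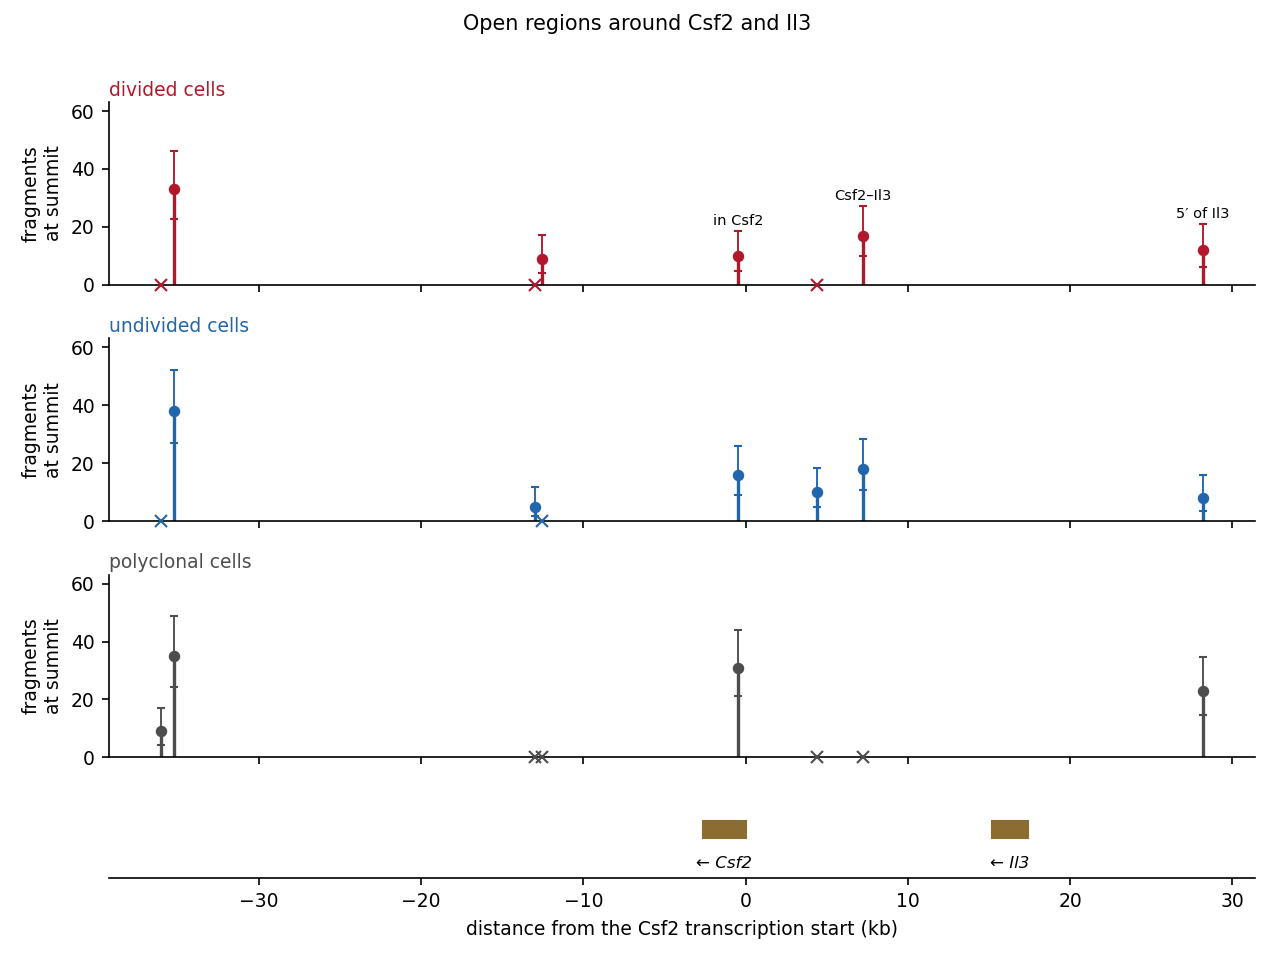
Fragments at the summit (y axis) of the regions of Csf2 and Il3 against distance from the Csf2 start (x axis, kb, rising with chromosome coordinates), in divided, undivided and polyclonal cells from top to bottom, 1 library each, with 95% Poisson intervals; crosses are regions with no called peak and boxes gene spans. The region in Csf2 has 10, 16 and 31 fragments in that order, and the one between the genes 17, 18 and no call.

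Gata3 was broadly open in every fraction. Of its 13 regions, 12 were called in divided cells, 8 in undivided and 9 in polyclonal cells. Of all regions, 82.2%, 71.1% and 75.4% were called in the same libraries. All 8 of the undivided list were called in the other libraries too, where 56.9% of all regions were called in all 3. The strongest lies 1.03 kb upstream of the transcription start used above, still inside the gene span (chr2:9879182-9879970), with 191 fragments (165 to 220) in divided cells, 146 (123 to 172) in undivided and 157 (133 to 184) in polyclonal cells. All 3 libraries placed its summit at the same base. Scaled ratios were 1.08 for divided to undivided, 1.02 for divided to polyclonal and 0.941 for undivided to polyclonal cells, with intervals that include 1.

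The region over the promoter window printed above (chr2:9878136-9878914) had 118 fragments in divided cells, 97 in undivided and 100 in polyclonal cells. A region 10.8 kb upstream of that start and 1072 bp outside the gene span (chr2:9889025-9890031) had 126, 81 and 82 fragments in the same order, with the highest −log10 q of the gene in divided cells, 81.3. Its scaled ratio was 1.29 for divided to undivided cells (0.968 to 1.73) and 1.29 for divided to polyclonal cells (0.97 to 1.73), and both intervals just include 1. Further upstream, at 17.8 kb, a weak site (chr2:9896074-9897375) had 15 fragments in divided cells, 18 in undivided and 12 in polyclonal cells.

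After that start, within the gene span, lay 3 further regions shared by all fractions. At 2.46 kb after the start (chr2:9875875-9876574), 127 fragments were counted in divided cells, 84 in undivided and 98 in polyclonal cells. At 7.2 kb (chr2:9871056-9871712) the counts were 85, 78 and 58 in the same order. At 11.1 kb (chr2:9867234-9867869) they were 73 in divided cells, 53 in undivided and 41 in polyclonal cells, and the scaled ratio of divided to polyclonal cells was 1.5 (1.01 to 2.25). That was the only Gata3 ratio whose counting interval left out 1, and scaled by background it was 1.28.

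The openness of the gene body also filled the local background against which the peak caller tested. At the site 2.46 kb after the start this background was 34.9 fragments in divided cells, 26.8 in undivided and 25.5 in polyclonal cells, while the median over all peaks was 3.15, 2.47 and 2.43. Only 0.486%, 0.58% and 0.655% of the peaks in the same libraries had as high a value. The authors' fold there was 3.56 in divided cells for 127 fragments, against 14.9 for the 39 fragments in Rad50. Calls inside Gata3 thus needed far more fragments than calls elsewhere. Both weak intragenic regions called in divided cells only (chr2:9872655-9872884 and chr2:9876708-9876983) had 41 and 62 fragments over backgrounds of 20.8 and 32, and −log10 q values of 2.5 and 3.97. A call would have needed 28 and 38 fragments in undivided cells, where equal openness would have given 34 and 51.4. In polyclonal cells it would have needed 29 and 40, where equal openness would have given 34.5 and 52.1. These counts were scaled by shared regions and would be lower by the background factors of 1.5 and 1.4. At the site with 41 fragments they lie too close to the needed counts to show a difference.

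Downstream of the Gata3 span and within 100 kb of it, 4 regions were found, each with fewer fragments than the shared sites inside the gene. The site at 76.8 kb (chr2:9801475-9802020) had 28 fragments (18.6 to 40.5) in divided cells, 23 (14.6 to 34.5) in undivided and 12 (6.2 to 21) in polyclonal cells. Its scaled ratios were 1.96 (0.966 to 4.23) for divided to polyclonal and 1.94 (0.926 to 4.28) for undivided to polyclonal cells, so the excess in both CBir1 fractions was not beyond counting error. At 102 kb a region (chr2:9775255-9776384) was called in divided cells only, with 16 fragments (9.15 to 26) and a −log10 q of 10.4. Equal openness would have given 13.3 fragments in undivided and 13.4 in polyclonal cells, where 5 and 6 would have sufficed. The other downstream sites were called in 1 library each, 9 fragments in divided cells at 86 kb and 8 in polyclonal cells at 108 kb.

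**Figure D4:**
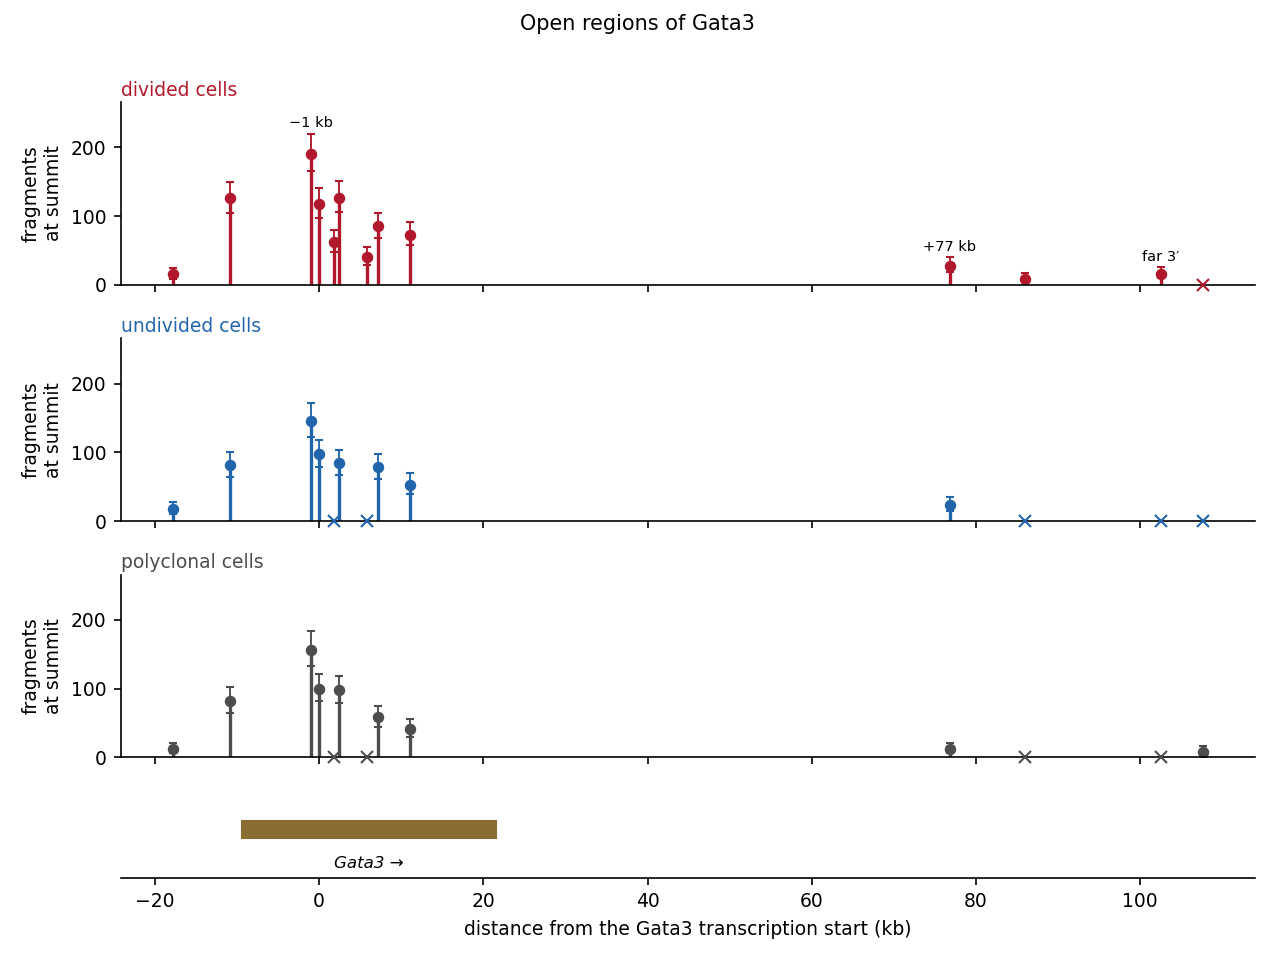
Fragments at the summit (y axis) of the Gata3 regions against distance from the Gata3 start (x axis, kb, positive downstream along transcription), in divided, undivided and polyclonal cells from top to bottom, 1 library each, with 95% Poisson intervals; crosses are regions with no called peak and the box is the gene span. The site 1.03 kb upstream stands highest in each library, with 191, 146 and 157 fragments.

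Set against the whole table, the members as a group stood near the background. Called in divided cells were 26 of 30 (86.7%, against 82.2% of all regions), in undivided cells 20 (66.7%, against 71.1%) and in polyclonal cells 21 (70%, against 75.4%). All 3 libraries shared 17 of the 30 (56.7%), against 56.9% of all regions. In divided cells alone there were 6 (20%, against 14.3%), in undivided cells alone 2 (6.67%, against 6.3%) and in polyclonal cells alone 2 (6.67%, against 7.49%). The Il4 and Rad50 sites were the 2 called in divided and polyclonal cells only (6.67%, against 7.07%), and none was called in undivided and polyclonal cells only, against 3.99% of all regions. With a −log10 q of at least 5 in the calling library, 4 of 28 member regions (14.3%) were called in divided and not in undivided cells, against 13.4% of all regions; they are the Il4, Il13 and Rad50 sites and the Gata3 site at 102 kb. None was called the other way, against 5.34% of all regions. Toward divided against polyclonal cells there were 3 of 28 (10.7%), against 10.4% of all regions, and in the reverse direction none, against 5.32%. Undivided and polyclonal cells had 1 of 24 each (4.17%), against 5.3% toward undivided and 7.87% toward polyclonal cells. With so few regions a count of 0 is not set apart from these shares, and the comparisons share libraries.

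For regions called in both libraries, the median scaled ratio of the members was 1.02 (18 regions) for divided to undivided, 1.08 (19) for divided to polyclonal and 1.04 (17) for undivided to polyclonal cells. Over all regions it was 1, 1.01 and 1.01. No member reached a ratio of 2 or fell to 0.5 between divided and undivided cells, where 4.28% and 3.44% of all regions did. Between divided and polyclonal cells, 2 of 19 reached at least 2 (10.5%, against 3.59% of all regions), the Rad50 site and that beyond Kif3a. At or under 0.5 were also 2 of 19, against 2.22% of all regions, the Csf2 and Il3 sites. Between undivided and polyclonal cells none of 17 reached 2, against 1.38% of all regions, and 1 lay at or under 0.5, the Il3 site, against 1.7%. The even medians therefore cover sites that differed in opposite directions. Counting intervals lay above 1 for 3 of 19 and below 1 for 2 of 19 in divided against polyclonal cells, where 6.72% and 5.18% of all regions did so. Between divided and undivided cells no interval of the 18 left out 1, where 7.53% of all regions lay above and 7.63% below. For undivided against polyclonal cells 2 of 17 lay below 1, against 3.02% of all regions, and none above, against 3.03%.

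**Figure D5:**
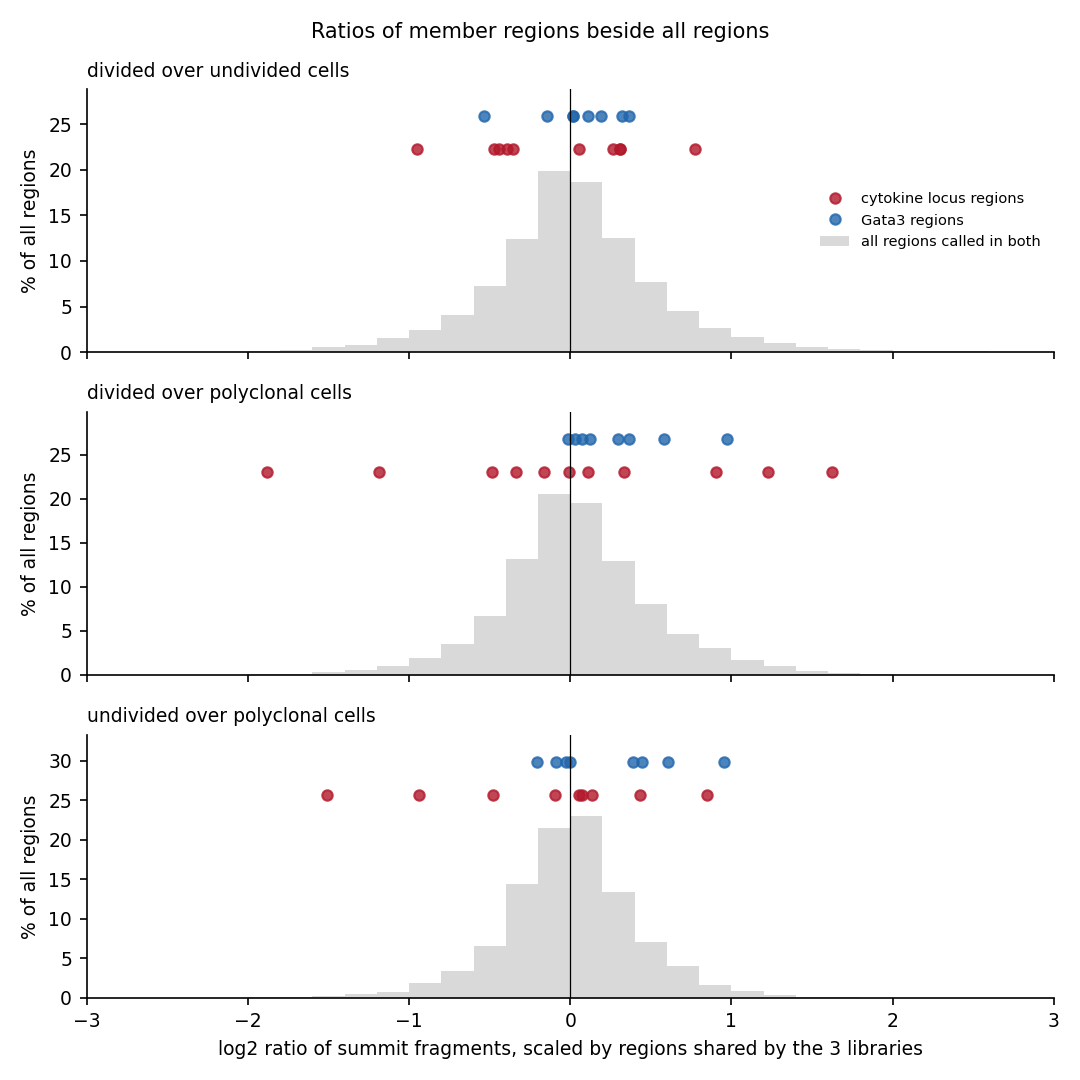
Log2 ratio of summit fragments, scaled by regions shared by the 3 libraries (x axis), for all regions called in both libraries (grey bars, % of regions, y axis) and for the members (points at arbitrary height; upper row Gata3, lower row the cytokine locus genes), for divided over undivided, divided over polyclonal and undivided over polyclonal cells. Gata3 ratios stay between 0.691 and 1.96, while cytokine locus ratios run from 0.271 to 3.08 for divided over polyclonal cells.

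Other genes of the Th2 pathway were described from a list of 28 that includes Stat6 and Il4ra, the transducer and receptor of the IL-4 signal, Il1rl1, the IL-33 receptor gene, and Maf, an activator of Il4. A gene was counted toward a library when it had more regions called there (−log10 q of at least 5) and not in the other than the reverse. Toward divided against undivided cells were 14 of 28 genes (50%), against 26.5% of all genes with a region, and none lay toward undivided cells, against 8.58%. Counted by region, 34 of 237 (14.3%, against 13.4% of all regions) lay toward divided and 4 (1.69%, against 5.34%) toward undivided cells. Il10, an anti-inflammatory cytokine gene also made by Th2 cells, and Nfatc2, which encodes an NFAT factor, each had 5 such regions against 0, and Maf had 4 against 0. Toward divided against polyclonal cells were 15 of 28 genes (53.6%, against 22.3% of all genes) and 2 the other way (7.14%, against 9.42%), led by Nfatc2 with 6 regions against 0. By region these were 30 of 249 (12%, against 10.4% of all regions) and 5 (2.01%, against 5.32%). For undivided against polyclonal cells, 7 genes (25%, against 10.1%) lay toward undivided and 10 (35.7%, against 15.4%) toward polyclonal cells. By region the shares were 10 of 202 (4.95%, against 5.3% of all regions) and 17 (8.42%, against 7.87%). The region shares toward the first-named fraction lay near the background in each comparison, and the 28 genes held 256 regions between them. Il10 had 0 against 4, Maf 0 against 3 and the genome organiser gene Satb1 2 against 0. Among the members, 4 of 8 genes (Il4, Il13, Rad50 and Gata3) lay toward divided against undivided cells, each by 1 region.

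Markers of other cells that use these genes were checked at gene ends, since mast cells, basophils and innate lymphoid cells also open the Il4 and Il13 region. Of 8 mast cell and basophil markers, 7 had no peak in any library, among them Mcpt8, Ms4a2, Fcer1a and Kit; the histidine decarboxylase gene Hdc had 34 fragments in divided and 36 in undivided cells and no peak in polyclonal cells. The summed level, in multiples of the lowest background, was 28.1 in divided cells, 44.6 in undivided and 0 in polyclonal cells, carried by Hdc alone. Of 6 markers of group 2 innate lymphoid cells, 2 had a gene-end peak in each library, and Nmur1, Klrg1 and Zbtb16 had none anywhere. The summed level of these 6 markers was 30.6 in divided cells, 50.8 in undivided and 40.4 in polyclonal cells. Gene-end peaks were found at 3 of 7 B cell markers in divided cells, 1 in undivided and 2 in polyclonal cells, with Ms4a1 and Pax5 at none and summed levels of 104, 118 and 125. Myeloid markers had 2 of 5, 3 and 3 in the same order, with Csf1r and Lyz2 at none and sums of 79.5, 110 and 106. Of the CD8 T cell markers, Cd8a had no gene-end peak and Cd8b1 had 33 fragments in divided cells, 51 in undivided and 63 in polyclonal cells, a fraction that the labels define as CD4+. Dividing by the lowest background sets the divided library down by 1.5 against undivided and 1.4 against polyclonal cells. The ratios above used only 1.21 and 1.19. On this scale even the 10 T cell identity genes were lowest for divided cells, with sums of 1700, 2156 and 1996 in the order used above. A lower divided sum was therefore not read as fewer cells of a type. The part of any of these cell types in the sites described was not tested.

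The genes with the most similar pattern were sought by summing summit fragments over a gene's regions, with 0 where no peak was called, and taking the scaled log2 ratios of divided to undivided and divided to polyclonal cells. For Il4, Il13, Rad50 and Il5 pooled, 226 fragments in divided cells, 124 in undivided and 153 in polyclonal cells gave 0.60 and 0.31. Their peaks covered 3729, 2226 and 2740 bp with mean pileups of 37.7, 41.3 and 30.6, over 6 regions called in divided cells, 3 in undivided cells and 5 in polyclonal cells. Of 3506 genes with at least 5 regions, the nearest were Ttyh3, Ppt1 and Rad51b, at distances of 0.019, 0.0194 and 0.0204, and 51 genes lay within 0.1. Gata3, with 891, 580 and 568 fragments in the same fractions, had ratios of 0.35 and 0.40. Its peaks covered 6831, 5509 and 4734 bp with means of 74.2, 72.5 and 63.1, over 12, 8 and 9 called regions. Sites called in divided cells only raise both ratios, among them the weak intragenic ones with 41 and 62 fragments. Over the 8 Gata3 regions called in both libraries, the log2 of the median scaled ratio was 0.07 to undivided and 0.21 to polyclonal cells. The genes nearest to Gata3 were Enpp7, Vrk1 and Ostf1 at 0.0152, 0.0212 and 0.0249, and 87 genes lay within 0.1. With 3 libraries, a pattern is a pair of ratios, and many genes share it.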

How the data were processed

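Peaks were called by the authors with MACS2 2.1.0 on build mm10, after bcl2fastq 2.17, cutadapt 1.12, Trimmomatic 0.33, Bowtie2 2.3.2, Picard and SAMtools, per the submitters' processing notes. Steps not given in the sources used here include how the duplicate pools entered each list. Each deposited list holds a fold over local background (a linear ratio), −log10 of the p-value and of the q-value at each summit, a score that is the −log10 q multiplied and cut to a whole number, and the summit offset. The deposited summit lists repeat positions and −log10 q.

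Summit pileups and local backgrounds were computed from the deposited fold, read as (pileup + 1)/(background + 1), and −log10 p under a Poisson model. A whole number resulted, within 0.001, for 99.996% of peaks in divided, 99.995% in undivided and 99.993% in polyclonal lists. The step was tested on simulated data. The lowest pileup called was 6 fragments in the divided and 5 in the undivided and polyclonal lists, and the lowest −log10 q was 1.31, 1.3 and 1.3, so weaker sites are not seen. Peaks sharing 1 bp were merged, and the peak of highest −log10 q stood for a library. Single ratios have 95% exact conditional binomial intervals, which cover counting error only.

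Named were all members, with their gene-end regions, regions called in 1 library of a pair, the strongest 2 and the most extreme ratios (3 each way per comparison), and the 3 list genes of largest net count; a tie at 2 regions left 1 for divided against polyclonal cells. The members and lists were chosen with earlier results of these data known. Python 3.11.15, pandas 2.3.3, numpy 2.4.6 and scipy 1.17.1 were used. Alternatives covered the q threshold, distance, assignment by start site, overlap and depth. No genome sequence was used here, so bases inside peaks are not shown.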

Additional observations from a re-analysis of the deposited data

How the results depend on the processing

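Of 66 values recomputed under other settings, 55 stayed within 1.5 times a count or within counting error of a median, and 11 moved. At the authors' threshold in place of a −log10 q of at least 5, regions called in divided and not in undivided cells numbered 8 in place of 4, and 2 in place of 0 the other way. Against polyclonal cells, divided cells then had 7 in place of 3, and polyclonal cells 2 in place of 0. Undivided against polyclonal cells gave 3 in place of 1, and 4 in place of 1 toward polyclonal cells. Requiring that overlapping peaks share at least 0.5 of the shorter one gave 2 regions toward undivided cells in place of 1, the added one being the weak Gata3 site 17.8 kb upstream. The median ratio of divided to undivided cells, 1.02, was 0.825 scaled by background and 1.23 unscaled, and that of divided to polyclonal cells, 1.08, was 0.921 and 1.29, so neither direction is fixed by these data. Limiting depth left the counts of regions called in 1 library of a pair as they were. Assignment by start site could not use Rad50, which has no entry in the promoter table. No paired analysis was possible because each fraction has 1 library, and for the same reason no replicate could be left out.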

Other observations

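Beyond the 100 kb limit, the stretch downstream of Gata3 without a protein-coding gene runs 2461 kb to Celf2. This stretch held the most open distal site near Gata3 and was looked at after the member values were seen. Of 36 regions there with no protein-coding gene within 100 kb, divided cells had a call in 29, undivided cells in 22 and polyclonal cells in 22. Of all regions, 82.2%, 71.1% and 75.4% were called in the same order. All 3 libraries shared 15 of the 36, against 56.9% of all regions. The strongest lies 284 kb downstream of the Gata3 start (chr2:9593745-9594592), with 196 fragments in divided cells, 169 in undivided and 164 in polyclonal cells. An enhancer active in T and NK cells is known far 3′ of mouse Gata3; whether this region is that element was not tested. A site 358 kb downstream (chr2:9519895-9520608) was also even, with 102, 108 and 101 fragments in the same order. Nearer the first, a region at 291 kb (chr2:9587329-9587815) had 28 fragments in divided and 11 in polyclonal cells and was not called in undivided cells, the pattern of the Rad50 site. With a −log10 q of at least 5, these 36 regions included 7 toward divided and 2 toward undivided cells, where the shares over all regions were 13.4% and 5.34%. There were 7 toward divided and 0 toward polyclonal cells (10.4% and 5.32% of all regions), and 2 toward undivided and 3 toward polyclonal cells (5.3% and 7.87%).

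The 522 kb between Il5 and Csf2 hold Irf1, an interferon-response factor gene, and the carnitine transporter genes Slc22a5 and Slc22a4. This stretch had 50 regions, with 42 called in divided cells, 39 in undivided cells and 42 in polyclonal cells. Of all regions, 82.2%, 71.1% and 75.4% were called in the same order. Irf1 had 8 regions and none called in 1 library of a pair at a −log10 q of at least 5. Over the 12 neighbours of the cytokine genes that had a region, 6 of 61 regions were called in divided and not in undivided cells (9.84%, against 13.4% of all regions) and 2 the other way (3.28%, against 5.34%). Among 9 neighbours of Gata3 the counts were 11 of 108 (10.2%) and 3 (2.78%), with Celf2 contributing 5 and 1.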
